A study of Rattus norvegicus with 42 samples.

Results

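Blood of rats with permanent occlusion of the middle cerebral artery (permanent-MCAO) that received tissue plasminogen activator (tPA) was compared with blood of rats that received tPA and had no occlusion. Both groups received the same drug at the same dose, and by design they differed in the stroke procedure. The comparison took 12 of the 42 arrays of the study, 6 rats per group with 1 Affymetrix rat whole-genome array per rat, and all 31042 probe sets of the array other than its controls. All rats were male Sprague-Dawley animals of 280 to 350 g. Recombinant human tPA was given intraperitoneally at 3.3 mg/kg, 3 h after the start of the occlusion or at the matching time, and blood was drawn by cardiac puncture into RNA-stabilising tubes at 24 h. In the permanent-MCAO rats a nylon suture had been passed up the right carotid artery under isoflurane and stayed in place until the blood was drawn. Rats were anesthetised for the blood draw, but the methods do not state whether the tPA rats without MCAO were also anesthetised on the first day. None had sham surgery, so occlusion, neck surgery and early anesthesia cannot be told apart here. Values are log2 expression, and a difference of 1 is a 2-fold change. A probe set was called where limma, a linear model that shares variance between probe sets, gave a p of at most 0.01 and a fold of at least 1.2, the thresholds the study used for comparisons of 12 rats. An adjusted p is limma's p after Benjamini-Hochberg adjustment over all 31042 probe sets.

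As background, whole blood RNA comes from red cell precursors, platelets and white cells together. Platelets carry RNA from megakaryocytes and take part in clotting, which tPA opposes by turning plasminogen into plasmin, the enzyme that dissolves fibrin. Ischemic stroke is known to be followed by a rise of circulating neutrophils and a fall of lymphocytes, and by release of stress hormones. In bulk blood, fewer cells of a type and less RNA per cell cannot be told apart, so every list below is a list of genes and not a count of cells.

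Platelet and cytotoxic lymphocyte genes were higher in permanent-MCAO rats, while MHC class II, B cell and interferon response genes were lower. T cell genes had mostly negative differences (27 of 29), but 4 were called lower, and as few as 2 in fits without 1 rat. Neutrophil genes were not called in either direction. Over all probe sets, 629 were called higher with permanent-MCAO (2.03%) and 1449 lower (4.67%), where about 310 would meet the p threshold alone without any effect. With 1 probe set per gene, the one with the highest mean, 2.59% of 14217 genes were called higher and 6.06% lower, which is the background for the gene lists. The lowest value of one group lay above the highest of the other for 569 probe sets higher (1.83%) and 558 lower (1.80%) with permanent-MCAO. The median difference of all genes was 0.01, but that of genes with a mean of at least log2 4 was -0.23, so bright genes as a whole lay lower in the permanent-MCAO rats. After adjustment 9 probe sets remained, 3 higher and 6 lower, with a smallest adjusted p of 0.0264. Of the 9, 2 had no gene name and 3 had a mean under log2 4. The 4 named genes above that level were Clu and Spint1, described below, Galnt1 and Mios. Galnt1, which starts O-linked glycosylation, rose by 0.55 on 1 probe set (limma adjusted p = 0.0451), while its brightest probe set differed by -0.12 and was not called. Mios, of a complex that regulates mTORC1, was 4.21 to 5.03 (median 4.63) with permanent-MCAO and 5.32 to 5.85 (median 5.75) without. The groups of Mios did not overlap and its fall of 1.08 passed adjustment (limma adjusted p = 0.0385), while its other probe set had the opposite sign. Leaving out probe sets with a mean under log2 4 raised that number to 938, and the methods' ordinary test, which shares no variance, gave 0 of 31042. Most calls below therefore rest on the unadjusted thresholds.

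Some arrays stood apart, and a technical measure moved with the groups. The hybridization control, the mean of 14 probe sets for transcripts spiked into each hybridization, was 11.98 ± 0.37 (SD, n = 6) in permanent-MCAO rats and 11.16 ± 0.75 in tPA rats, and the exact permutation test over 924 divisions of the rats gave a two-sided p of 0.013. The 3' minus 5' difference of beta-actin, a measure of RNA integrity and labelling, was 3.45 ± 0.53 and 4.16 ± 0.56 (exact permutation p = 0.0455, two-sided, n = 6 per group). The same measure from Gapdh was 1.57 ± 0.26 and 1.72 ± 0.23 (exact permutation p = 0.31, two-sided). tPA rat 2 had the lowest hybridization control at 9.72, against 11.05 for the next rat. Permanent-MCAO rat 1 had the lowest mean correlation with the other arrays of both groups together, at 0.867. With the hybridization control as a covariate 192 probe sets were called higher and 256 lower. Without both arrays 434 were higher and 841 lower. The part of this measure in the results was not tested, and counts with the covariate are given with the lists below. Fewer probe sets were also called lower without permanent-MCAO rat 2 (932), tPA rat 2 (928) or tPA rat 3 (922).

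**Figure D1:**
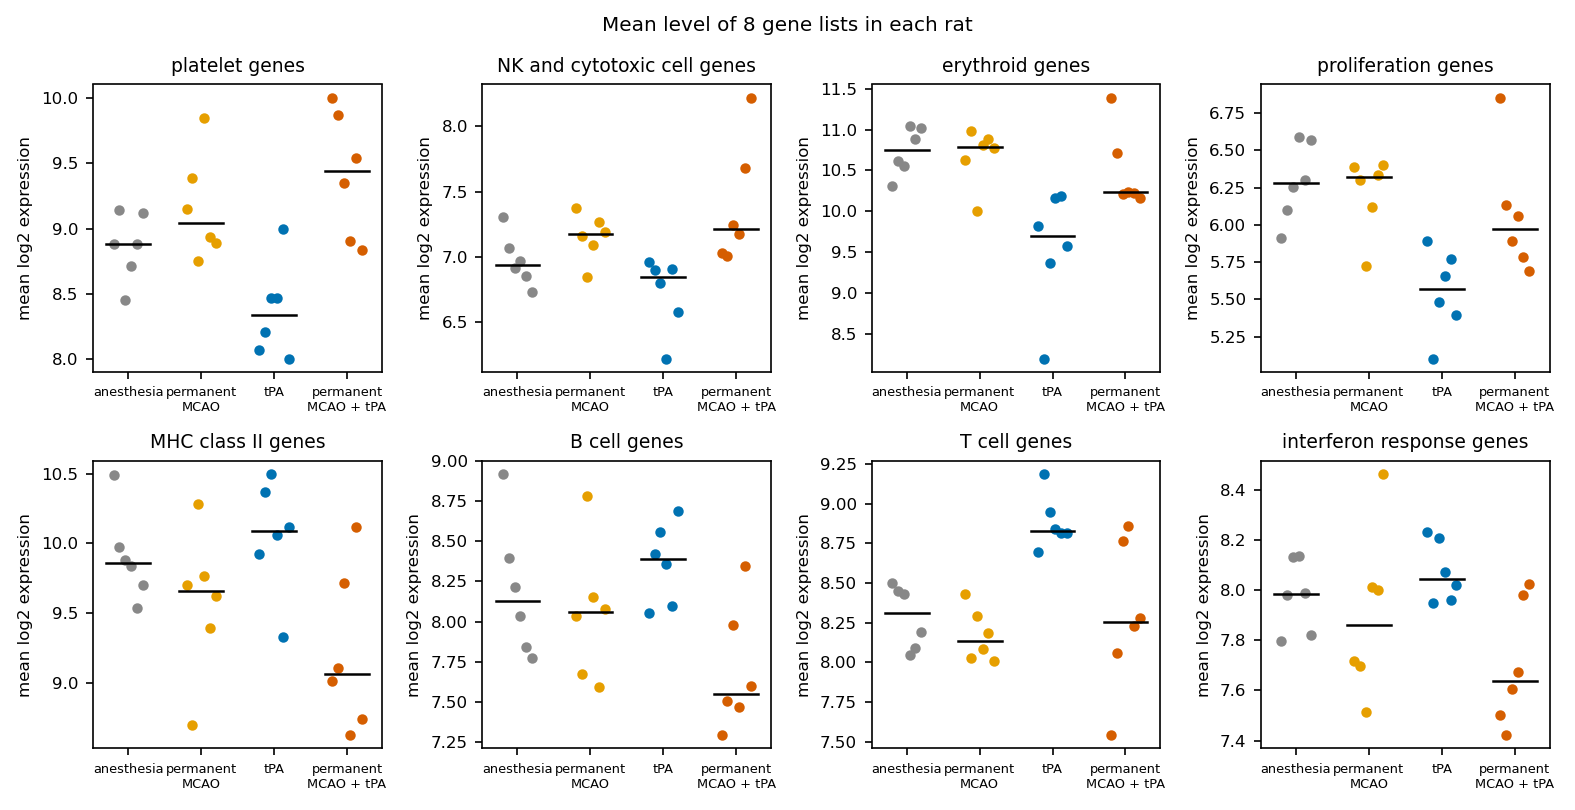
Mean log2 expression of the genes of 8 lists in each rat (points, left to right by rat number; lines are medians) for anesthesia, untreated permanent-MCAO, tPA without MCAO and permanent-MCAO with tPA, with a separate vertical scale in each panel. The NK and cytotoxic cell list separates the 2 tPA-treated groups, from 7.00 to 8.22 against 6.22 to 6.96, while the other 7 lists overlap between them.

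Genes of the platelet list were higher in permanent-MCAO rats. Of 28 genes measured, 17 were called higher and 0 lower, 27 had a positive difference, and the median difference was 1.04. The mean level of the list per rat ran from 8.84 to 10.003 (median 9.44) with permanent-MCAO and from 8.003 to 8.9998 (median 8.34) without. Only the highest tPA rat reached into the range of the permanent-MCAO rats. Without 1 rat the number called higher was 13 to 21, without both arrays that stood apart 13, and with the hybridization control as a covariate 4, with a median of 0.73.

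The promoters of 6 called genes are shown for 3 lists, 2 genes each, so that the letters near the start can be read beside the values. They are the 250 bases before the annotated start on the gene's strand from RefSeq on the GRCr8 assembly, and they are the called genes of smallest p with an entry there (for MHC class II, among the genes for its chains). Capitals mark matches, on either strand, to the motif bound by GATA factors, here AGATAA, in platelet genes, to the Y box, here GATTGG, in MHC class II genes, and to the interferon-stimulated response element (GAAA repeated after a gap of 2 bases) in interferon genes.
F13a1: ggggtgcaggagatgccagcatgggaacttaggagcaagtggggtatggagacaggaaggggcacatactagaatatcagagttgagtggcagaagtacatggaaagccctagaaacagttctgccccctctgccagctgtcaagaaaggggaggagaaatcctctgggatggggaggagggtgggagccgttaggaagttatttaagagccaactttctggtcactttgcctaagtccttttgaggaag
Rgs18: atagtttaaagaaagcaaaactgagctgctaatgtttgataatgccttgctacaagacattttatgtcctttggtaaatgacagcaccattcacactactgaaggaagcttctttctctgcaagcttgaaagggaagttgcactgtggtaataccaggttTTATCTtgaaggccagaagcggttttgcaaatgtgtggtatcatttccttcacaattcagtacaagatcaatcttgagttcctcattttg
RT1-Db1: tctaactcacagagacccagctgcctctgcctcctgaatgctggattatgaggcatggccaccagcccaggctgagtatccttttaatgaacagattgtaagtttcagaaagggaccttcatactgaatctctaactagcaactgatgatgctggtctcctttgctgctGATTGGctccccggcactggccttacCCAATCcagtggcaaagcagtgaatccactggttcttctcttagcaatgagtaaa
RT1-Da: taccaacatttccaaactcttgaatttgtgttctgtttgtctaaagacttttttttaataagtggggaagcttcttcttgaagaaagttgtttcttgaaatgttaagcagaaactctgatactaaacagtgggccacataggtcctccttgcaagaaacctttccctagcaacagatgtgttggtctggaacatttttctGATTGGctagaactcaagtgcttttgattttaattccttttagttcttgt
Irgm: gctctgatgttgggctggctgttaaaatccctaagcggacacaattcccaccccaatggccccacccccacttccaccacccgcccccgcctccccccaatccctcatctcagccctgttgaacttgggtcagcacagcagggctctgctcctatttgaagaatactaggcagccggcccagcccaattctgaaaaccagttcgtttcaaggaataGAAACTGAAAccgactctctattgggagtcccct
Irf9: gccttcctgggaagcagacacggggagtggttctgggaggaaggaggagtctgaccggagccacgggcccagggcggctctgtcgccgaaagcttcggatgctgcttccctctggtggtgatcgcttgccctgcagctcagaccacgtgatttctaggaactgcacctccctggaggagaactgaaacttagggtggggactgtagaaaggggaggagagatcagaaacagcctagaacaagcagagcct
F13a1 lies at chr17:28020947-28021196 on the plus strand and Rgs18 at chr13:59066343-59066592 on the minus strand. RT1-Db1 lies at chr20:4560163-4560412 on the minus strand and RT1-Da at chr20:4515165-4515414 on the plus strand. Irgm lies at chr10:33742579-33742828 on the minus strand and Irf9 at chr15:33065586-33065835 on the plus strand. Over 33469 promoters of the same length, 10.3% held AGATAA, 13.3% GATTGG and 3.41% the response element. AGATAA was in 5 of the 12 called platelet genes with an entry, GATTGG in 4 of 6 called MHC class II genes, and the response element in 4 of 8 called interferon genes. Over whole lists, called or not, the counts were 5 of 21, 7 of 9 and 17 of 29.

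Clu encodes clusterin, a chaperone stored in platelet granules and also made by other cells. Its log2 expression was 10.10 to 10.95 (median 10.59) in permanent-MCAO rats and 8.74 to 9.63 (median 9.04) in tPA rats. Every permanent-MCAO rat lay above every tPA rat, and the difference of 1.44 (SE 0.18, 2.71-fold) was 1 of the 3 increases to pass adjustment (limma adjusted p = 0.0385). F13a1, the catalytic chain of the clot-stabilising factor XIII, measured 8.80 to 10.56 (median 10.28) against 7.90 to 8.69 (median 8.47). Its groups did not overlap either, although permanent-MCAO rat 4 lay well below its group, and the difference was 1.66 (SE 0.29, 3.17-fold). P2ry12, the platelet ADP receptor, was 7.21 to 8.93 (median 7.95) against 5.72 to 7.34 (median 6.13) and rose by 1.76 (SE 0.32), with 5 of 6 rats above all tPA rats. Rgs18, a regulator of G protein signaling in platelets, rose by 1.31 (SE 0.27) without overlap, from 9.23 to 10.95 (median 10.20) in tPA rats to 10.98 to 11.80 (median 11.42). These 4 genes were the ones called with the hybridization control as a covariate.

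Subunits of the platelet surface receptors varied in how far they moved. Itga2b and Itgb3, the fibrinogen receptor, rose by 1.21 and 0.85, and Gp5, of the receptor for von Willebrand factor, rose by 1.75 (SE 0.39), from a median of 5.59 to 7.34. Gp9 of the same complex was 9.38 to 11.15 (median 10.70) against 9.10 to 10.45 (median 9.27) and was not called at 1.04. Some other platelet genes were not called. Pf4, platelet factor 4, differed by 0.37 between medians of 13.94 and 13.44, and Tubb1, the platelet tubulin, by 0.32 between 13.24 and 12.91, neither of them called. Ppbp, the precursor of platelet basic protein, had the widest spread, 7.16 to 10.56 against 6.06 to 8.27, and its difference of 1.85 was not called. Vwf, which carries factor VIII and tethers platelets, rose by 1.197 but was called in 2 of the 12 fits that left out 1 rat.

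Genes of clotting, of plasmin control and of matrix proteases were called in single cases. F5, coagulation factor V, rose by 1.28 (SE 0.27), from a median of 9.02 to 10.45. Serpinb2, an inhibitor of plasminogen activators, was 2.95 to 3.12 (median 3.02) in tPA rats and 3.38 to 6.67 (median 4.81) with permanent-MCAO. It was called higher without overlap, but the tPA rats lay under log2 4, the limit used here for dim probe sets, so no size is given. With F13a1 these were the 3 called of 30 genes of plasminogen activation and coagulation, whose median difference was 0.05, and F13a1 and F5 were the 2 called with the hybridization control as a covariate. Timp3, an inhibitor of matrix metalloproteinases, had the largest rise of the genes described here, 2.90 (SE 0.53, 7.45-fold), from 4.08 to 6.51 (median 4.59) to 6.32 to 9.17 (median 8.08). It was the 1 gene called of 21 matrix protease genes, with the covariate too. Mmp9, the gelatinase studied for bleeding after tPA, was 4.75 to 7.70 (median 6.87) against 6.04 to 7.34 (median 6.604), a difference of 0.02 with an SE of 0.49. Spint1, which encodes an inhibitor of hepatocyte growth factor activator and related serine proteases, rose by 2.11 (SE 0.24, 4.31-fold, limma adjusted p = 0.0264). Its values of 5.45 to 6.89 (median 6.24) lay apart from 3.53 to 4.55 (median 4.08) in tPA rats.

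**Figure D2:**
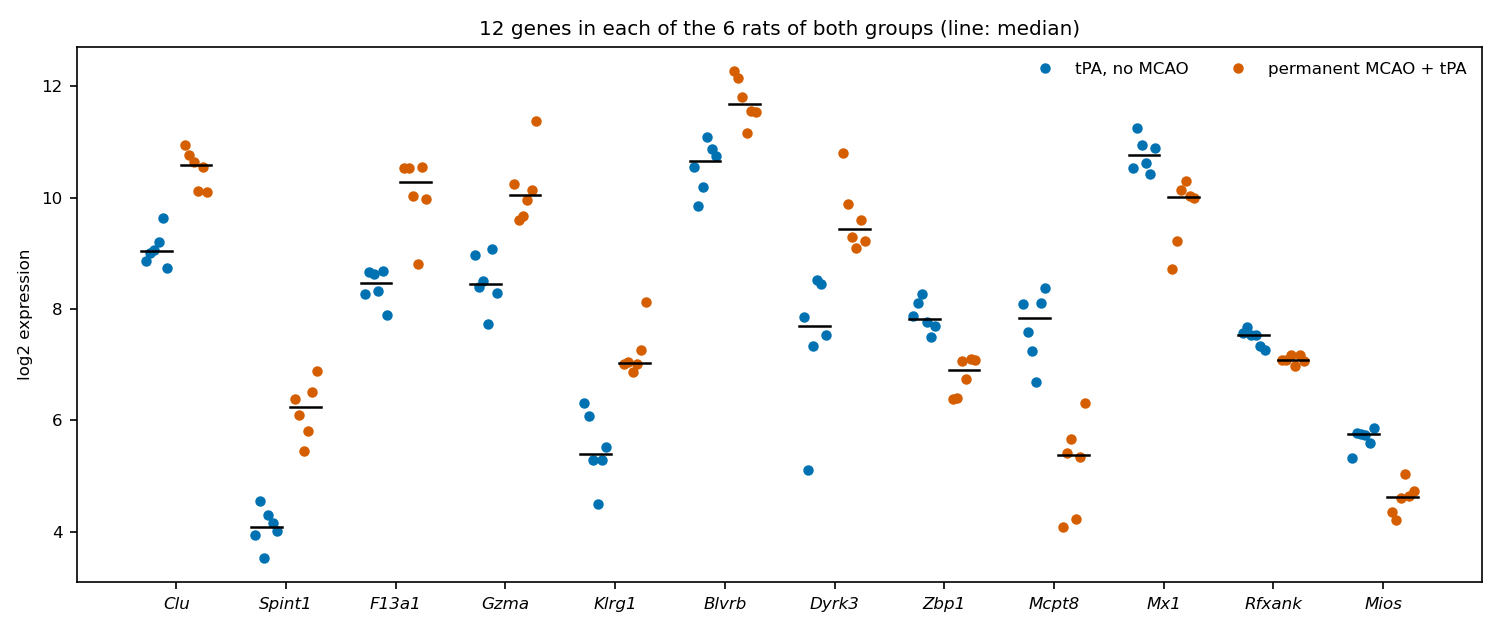
Log2 expression of 12 genes in each of the 6 tPA rats (blue) and the 6 permanent-MCAO rats with tPA (orange), with the group median as a line. None of these 12 genes overlaps between the groups, with 7 higher and 5 lower with permanent-MCAO.

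Cytotoxic lymphocyte genes formed a second group that was higher in permanent-MCAO rats. Of 24 genes of NK and cytotoxic cells, 7 were called higher and 1 lower, 20 had a positive difference, and the median was 0.77. The mean level of the list was 7.00 to 8.22 (median 7.21) with permanent-MCAO and 6.22 to 6.96 (median 6.85) without. As many, 7, were called higher with the hybridization control as a covariate (median 0.93), and 8 without both arrays that stood apart. Leaving out 1 rat gave 6 to 9.

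Gzma, a serine protease of cytotoxic granules, was 9.59 to 11.38 (median 10.04) with permanent-MCAO and 7.72 to 9.09 (median 8.45) without, a rise of 1.67 (SE 0.32, 3.18-fold). Permanent-MCAO rat 6 was far above its group, and all 6 rats were above the tPA rats. Gzmb, the granzyme that cleaves caspases in target cells, rose by 1.45 (SE 0.31), from a median of 6.04 to 7.52, and Gzmk, a granzyme of other specificity, by 1.27 (SE 0.33), from 9.998 to 10.999, both without overlap. Klrg1, an inhibitory receptor of mature NK and T cells, measured 6.87 to 8.12 (median 7.04) against 4.51 to 6.31 (median 5.403) and rose by 1.73 (SE 0.31). Faslg, the ligand of the death receptor Fas, rose by 1.13, and Eomes, a transcription factor of NK and memory CD8 T cells, by 1.18. Klrk1, which encodes the activating receptor NKG2D, was the exception, falling by 0.92 (SE 0.24) from 7.82 to 9.02 (median 8.41) to 6.85 to 7.90 (median 7.64). Perforin (Prf1, 0.66), Nkg7 (0.94), the NK receptor gene Ncr1 (1.201) and the chemokine gene Ccl5 (0.51) had positive differences that were not called.

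Lymphocyte genes outside the cytotoxic group lay lower. Of 18 B cell genes, 6 were called lower, 0 had a positive difference, and the median was -0.69. Of 29 T cell genes, 4 were called lower and 2 had a positive difference, with a median of -0.69. These medians compare with -0.23 over all bright genes. The tPA rats themselves had 20 of 29 T cell genes and 1 of 18 B cell genes called higher than rats under anesthesia. The medians were 0.69 and 0.14, beside 0.24 over all bright genes. In that comparison 2841 of 31042 probe sets were called higher. Its 2 groups also differed in the hybridization control, with means of 11.16 in tPA rats and 12.22 under anesthesia. For permanent-MCAO with tPA against tPA, the fit with the hybridization control called 1 B cell gene and 0 T cell genes lower, with medians of -0.62 and -0.30. The counts called lower ran from 4 (without permanent-MCAO rat 1) to 10 (without permanent-MCAO rat 5) for B cell genes. For T cell genes they ran from 2 (without any one of permanent-MCAO rats 2, 5 and 6 or tPA rats 2, 3, 4 and 6) to 11 (without permanent-MCAO rat 3) and 13 (without permanent-MCAO rat 4), and without both arrays that stood apart they were 2 for B cell genes and 4 for T cell genes.

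Fcrla, a B cell protein related to Fc receptors, was 9.50 to 10.84 (median 9.77) with permanent-MCAO and 10.76 to 11.56 (median 11.08) without, a fall of 1.11 on the log2 scale (SE 0.24). Permanent-MCAO rats lay below all tPA rats in 5 of 6 cases. Fcer2, the low-affinity IgE receptor CD23, fell by 1.60 (SE 0.41), from a median of 11.14 to 9.31, and Cd79b, of the B cell receptor complex, fell by 1.10 (SE 0.28), from 10.64 to 9.55. Ms4a1 (CD20) and Cd22 differed by -0.76 and -0.69 and were not called. Among T cell genes, Cd7 was 7.83 to 8.99 (median 8.79) against 9.10 to 10.19 (median 9.46) and fell by 0.97 (SE 0.24) without overlap. Camk4, a kinase activated by calcium and calmodulin, fell by 1.21 (SE 0.33), with tPA rats in a narrow range of 6.43 to 6.73 and permanent-MCAO rats spread over 4.03 to 6.65. Cd3d, of the T cell receptor complex, fell by 1.00 but was called in 4 of the 12 fits without 1 rat. Cd3e (-0.83), the kinase gene Lck (-0.69) and Cd8a (-0.64) had negative differences that were not called.

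Genes of MHC class II and its regulators were lower as a group. Class II chains present peptides to CD4 T cells and are expressed in blood by B cells, monocytes and dendritic cells, and the list also holds the regulators Ciita, Rfx5, Rfxank and Rfxap. All 11 genes measured had a negative difference, 7 were called lower and 0 higher, and the median was -0.76. Of the 7, 4 encode class II chains, the invariant chain Cd74 or the loading complex, and 3 are regulators. Only 1, the regulator Rfxank, was called with the hybridization control as a covariate, with a median of -0.54, and without both arrays that stood apart 4 were. Counts without 1 rat were 5 to 10. RT1-Db1, a class II beta chain whose promoter is shown above, was 9.76 to 11.36 (median 10.63) against 11.26 to 11.81 (median 11.75) and fell by 0.98 (SE 0.24). RT1-Da, the matching alpha chain, fell by 0.85 (SE 0.23), from 12.16 to 12.69 (median 12.45) to 10.996 to 12.32 (median 11.49). Both had 5 of 6 permanent-MCAO rats below all tPA rats. RT1-DMb, of the peptide loading complex, fell by 0.84. The 3 subunits of the RFX complex that binds class II promoters were called lower too, Rfx5 in 3 of 12 fits without 1 rat. Rfxank, one of them, had tight groups of 6.97 to 7.18 (median 7.09) and 7.26 to 7.68 (median 7.54), did not overlap and fell by 0.39. Rfxap fell by 0.51 without overlap. Ciita, the class II transactivator, differed by -0.89 and was not called. RT1-Bb ranged from 2.26 to 11.43 and from 2.49 to 11.97, with single rats under log2 4 in both groups, and its difference of -2.04 was not called. Probe sets for these genes may also bind transcripts of close paralogs.

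Interferon response genes followed. Of 35 measured, 11 were called lower and 0 higher, and the median was -0.36. Zbp1, a sensor of viral nucleic acid induced by interferon, was 6.38 to 7.10 (median 6.91) against 7.49 to 8.27 (median 7.82) and fell by 1.07 (SE 0.17, 2.10-fold, limma adjusted p = 0.0599). Every permanent-MCAO rat was below every tPA rat. Mx1, an antiviral GTPase, fell by 1.04 (SE 0.27), from 10.43 to 11.24 (median 10.76) to 8.72 to 10.30 (median 10.02), and Irf9, of the factor that binds the interferon-stimulated response element, fell by 0.69 (SE 0.17), both without overlap. Mx2 fell by 1.07 on 1 probe set, and its other probe set had the opposite sign. Psmb8 and Psmb9, interferon-induced proteasome subunits, fell by 0.75 and 0.64, Psmb8 being called in 5 of 12 fits without 1 rat. Rtp4, an interferon-induced gene outside the list that was named after its values were seen, fell by 1.67 (SE 0.34), from a median of 7.85 to 6.14. Other well-known members did not follow. Irf7 (-0.34), Isg15 (-0.32) and Ifit3 (0.14) were not called, with SEs of 0.39, 0.47 and 0.29. The fit with the hybridization control called 1 of the list lower, with a median of -0.42, and without both arrays that stood apart 7. There were 7 as well without permanent-MCAO rat 1 or without tPA rat 3.

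Of 22 genes of basophils, mast cells and eosinophils 4 were called lower, while 16 had a positive difference, 6 a negative one, and the median was 0.02. The hybridization control as a covariate left 2 called, Mcpt8 and Fcer1a. Only 8 of its genes had a mean of at least log2 4. Mcpt8, a protease of rat basophils, was 4.09 to 6.31 (median 5.37) with permanent-MCAO and 6.68 to 8.38 (median 7.84) without. The fall of 2.51 (SE 0.42, 5.69-fold) had no overlap. Hdc, which makes histamine, was called lower, with medians of 3.56 and 6.35, the first under log2 4. It was called in 4 of 12 fits without 1 rat. The transcription factor gene Gata2 (medians of 2.64 and 4.17, with another probe set of opposite sign) and the IgE receptor gene Fcer1a (2.95 and 3.91) were also called lower, at levels too near or under log2 4 to give a size. The protease gene Mcpt9 and the nuclease gene Dnase2b, outside the list and named after their values were seen, fell by 1.57 and 2.75. Cpa3, a mast cell carboxypeptidase, was 2.74 to 7.14 against 2.67 to 4.27 and was not called.

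Red cell genes lay higher in permanent-MCAO rats, and their levels moved with the hybridization control. All 38 erythroid genes had a positive difference, with a median of 0.87, and 5 were called higher. The mean level of the list was 10.16 to 11.39 (median 10.23) with permanent-MCAO and 8.19 to 10.18 (median 9.70) without, against 10.30 to 11.04 (median 10.75) in rats under anesthesia alone. The lowest value belonged to tPA rat 2. Adding the hybridization control as a covariate left 1 gene called and a median of 0.07, and without both arrays that stood apart 5 were called with a median of 0.42. The count was 2 without tPA rat 6 and 8 without tPA rat 5, and 3 without any one of permanent-MCAO rats 1, 2, 3, 5 and 6 or tPA rat 3. Blvrb, biliverdin reductase B of the heme breakdown path, was the gene called with the covariate. It was 11.16 to 12.27 (median 11.69) against 9.85 to 11.09 (median 10.65), a rise of 1.19 (SE 0.24) without overlap. Hbe1, an embryonic globin gene, rose by 2.10 (SE 0.53), from 3.87 to 6.97 (median 6.45) to 7.14 to 8.89 (median 8.32). Dyrk3, a kinase of red cell precursors named after its values were seen, rose by 2.18 (SE 0.55). Adult beta globin (Hbb, 0.28) and Alas2 (0.16), the first enzyme of heme synthesis in red cells, had medians of 14.68 and 14.52 with permanent-MCAO and were not called. Alad and Ppox, later enzymes of heme synthesis, rose by 1.5003 and 1.65, and these were 2 of 8 such genes. They were called in 4 and 9 of 12 fits without 1 rat. The hybridization control as a covariate left 0 called with a median of 0.08, and 0 of the 8 were called without permanent-MCAO rat 5 or tPA rat 2.

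Of 38 proliferation genes 4 were called higher and 2 lower. Mki67, a marker of dividing cells, rose by 1.98 (SE 0.59), from a median of 6.91 to 8.88, Tyms (thymidylate synthase) by 1.46, Cdkn3 (a cyclin-dependent kinase phosphatase) by 2.19 and Tk1 (thymidine kinase) by 1.49. Of these Mki67, Cdkn3 and Tk1 were called in 5, 4 and 4 of 12 fits without 1 rat. Mcm7, of the replicative helicase, fell by 0.61 without overlap. Bub1b, of the spindle checkpoint, was the other gene called lower, but both groups were under log2 4. No proliferation gene was called higher with the hybridization control as a covariate, and 1 was without both arrays that stood apart or without any one of permanent-MCAO rats 2 and 3 or tPA rats 3 and 6.

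**Figure D3:**
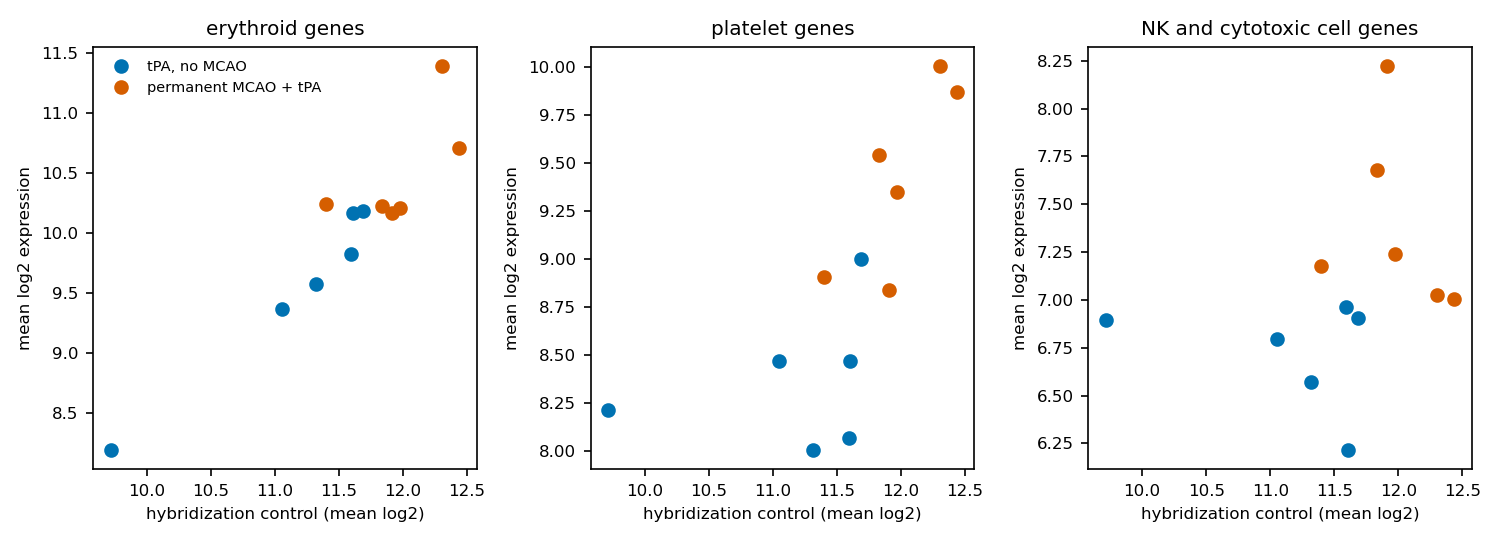
Mean log2 level of the erythroid, platelet and NK and cytotoxic cell genes in each rat against the hybridization control of its array, for tPA rats (blue) and permanent-MCAO rats with tPA (orange). tPA rat 2 lies at the left at 9.72, and the lowest permanent-MCAO rat at 11.4. NK and cytotoxic cell levels of the 2 groups do not overlap.

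Housekeeping groups had small median differences. Of 44 genes of oxidative phosphorylation 12 were called lower (27.3%, beside 6.06% of all genes), with a median of -0.14, above that of all bright genes. When the arrays were centred on their medians 5 were called lower. Atp5f1c, of the ATP synthase, fell by 0.80 (SE 0.16) from 11.29 to 11.71 (median 11.40) to 10.03 to 10.98 (median 10.79). Leaving out permanent-MCAO rat 2 or tPA rat 3 left 4 of this list called, and tPA rat 2 left 5. The hybridization control as a covariate left 2 called. Of 34 ribosomal protein genes 5 were called lower with a median of -0.17, and 2 after centring or without tPA rat 2, 0 with the covariate, against 10 without permanent-MCAO rat 3. Rpl5, of the large subunit, fell by 0.47 and was called in 6 of 12 fits without 1 rat, and Rpl39 fell by 0.47 too. Of 24 heat shock genes 3 were called higher and 1 lower, and 3 and 0 were with the covariate. Hsph1, a large chaperone, rose by 0.72 (SE 0.15), and Hspa9, a mitochondrial chaperone, fell by 0.47 with 1 of its 4 probe sets of opposite sign. Of 24 immediate early genes 1 was called higher and 1 lower, and of 24 glucocorticoid response genes 1 was called higher, shares near the background of all genes. These were Jun, higher by 0.96 but not called without both arrays that stood apart, Egr2, lower at medians under log2 4, and Fkbp5, a feedback regulator of the glucocorticoid receptor, higher by 0.63. None of 28 hypoxia response genes was called. Brain genes (1 of 17 with a mean of at least log2 4) and cardiac and skeletal muscle genes (2 of 20) were near the floor and not called.

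Neutrophil, monocyte and inflammatory genes were set beside the untreated arm. There, permanent-MCAO rats without tPA were set against rats under anesthesia, and 1.77% of probe sets were called higher and 1.01% lower. With tPA 0 of 27 neutrophil genes were called, with a median of -0.06, against 8 higher without tPA with a median of 0.47. The baselines differed. In tPA rats without MCAO 7 of the 27 neutrophil genes were called higher than in rats under anesthesia, with a median of 0.26. Over all genes of that comparison 2841 of 31042 probe sets were called higher. Bright genes had a median of 0.24 there, near that of the neutrophil list. Of 24 monocyte genes 0 were called higher and 2 lower with tPA, against 5 higher without. Of 36 genes of inflammatory cytokines and their receptors 0 were called with tPA and 10 higher without. Leaving out permanent-MCAO rat 4 gave 2 neutrophil and 2 inflammatory genes called higher with tPA. Slpi, a leukocyte protease inhibitor, was 11.09 to 12.51 (median 11.42) with permanent-MCAO and tPA and 11.33 to 12.22 (median 11.83) with tPA alone. Its difference of -0.13 (95% interval -0.71 to 0.45) stood beside 1.24 (0.62 to 1.85) in untreated rats. Csf3r, the receptor for granulocyte colony-stimulating factor, differed by 0.02 (-0.54 to 0.59) with tPA and by 1.21 without. Il1r2, a decoy receptor for interleukin 1, was 6.97 to 10.32 (median 9.60) against 7.78 to 8.95 (median 8.53), a difference of 0.67 (-0.45 to 1.78) beside 1.60 without tPA. S100a8 and S100a9, abundant neutrophil proteins, differed by -0.13 and 0.02.

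The difference between the stroke effects with and without tPA was tested over all 24 rats as an interaction. It was called positive for 544 probe sets (1.75%) and negative for 937 (3.02%), and 1 passed adjustment. Without both arrays that stood apart these were 293, 456 and 0, and with the hybridization control as a covariate 157, 269 and 0. The median interaction of bright genes was -0.24. The 1 that passed adjustment was Tmem268, a membrane protein gene of little known role. It fell by 0.71 with permanent-MCAO under tPA, from 9.85 to 10.49 (median 10.14) to 8.96 to 9.74 (median 9.53), and rose by 0.79 in untreated rats. The interaction was -1.51 (95% interval -1.97 to -1.04, limma adjusted p = 0.0359). In the neutrophil list, with a median of -0.61, it was called negative for 7 genes and positive for 0, among them Slpi (-1.37) and Csf3r (-1.19). For Il1r2 (-0.93) and Cxcr2 (-0.94), a chemokine receptor of neutrophils, the interaction was not called. In the monocyte list, with a median of -0.30, near that of bright genes, it was negative for 5, among them Fcgr2b, the inhibitory Fc receptor, at -1.203. Of the platelet list it was positive for 5 of 28 genes with a median of 0.78, among them Clu (0.96), Rgs18 (1.12) and Gp5 (1.62), and of the erythroid list for 5 of 38. For Gzma it was 1.21 and for Gzmb 0.91, the second not called. Outside the lists Spint1 stood at 1.82, Slc35c2, a Golgi transporter gene, at -2.07, and Fetub, a fetuin family gene, at -2.68. Slc35c2 and Fetub were named after their values were seen. Slc35c2 fell by 1.53 with tPA, and Fetub differed by -0.70 with tPA and by 1.98 without.

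**Figure D4:**
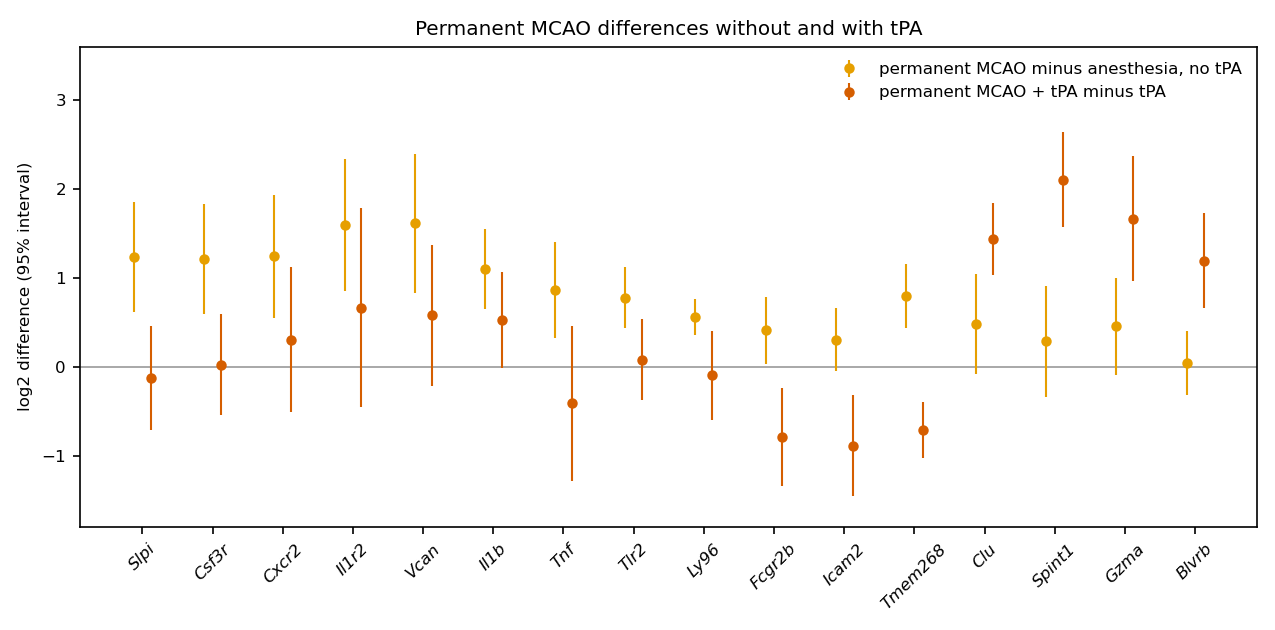
Log2 differences with 95% intervals from limma for 16 genes, in untreated rats (permanent-MCAO minus anesthesia, yellow) and in tPA-treated rats (permanent-MCAO with tPA minus tPA, orange), 6 rats per group. The first 9 genes, of neutrophils, monocytes and inflammation, have intervals above 0 in untreated rats, and Clu, Spint1, Gzma and Blvrb have intervals above 0 with tPA. The genes were chosen by their values.

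The control groups themselves differed. The tPA rats without MCAO, the baseline of the main comparison, differed from rats under anesthesia at 3884 adjusted probe sets. Permanent-MCAO rats with tPA differed from the rats under anesthesia at 2. The hybridization control of tPA rats (9.72 to 11.69, mean 11.16 ± 0.75 SD) did not overlap that of rats under anesthesia (11.79 to 12.37, mean 12.22 ± 0.22). Its part in the difference between tPA rats and rats under anesthesia was not tested. As background, 2841 of 31042 probe sets were called higher and 1426 lower in tPA rats than under anesthesia. For permanent-MCAO with tPA against anesthesia these were 409 and 162. Bright genes had medians of 0.24 and -0.03 in these comparisons. These comparisons share groups with the main one and are given side by side only. The median of the erythroid list was -1.16 for tPA against anesthesia, with 17 genes called lower, and -0.17 for permanent-MCAO with tPA against anesthesia. T cell genes stood higher in the tPA rats than in rats under anesthesia, with 20 of 29 called and a median of 0.69, against a median of -0.01 and 0 called for permanent-MCAO with tPA. Neutrophil genes had 7 of 27 called higher in the tPA rats (median 0.26) and 1 in permanent-MCAO rats with tPA (median 0.18). Platelet genes had 8 called lower in the tPA rats (median -0.46) and 4 higher in permanent-MCAO rats with tPA (median 0.54). For B cell genes the medians were 0.14 and -0.61, and for NK and cytotoxic cell genes -0.31 and 0.50. Clu had an anesthesia median of 9.59, between the tPA and permanent-MCAO medians given above, and so did Gzma at 9.39, Mcpt8 at 6.43 and Zbp1 at 7.28. Blvrb, by contrast, had an anesthesia median of 12.09, above that of the permanent-MCAO rats.

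**Figure D5:**
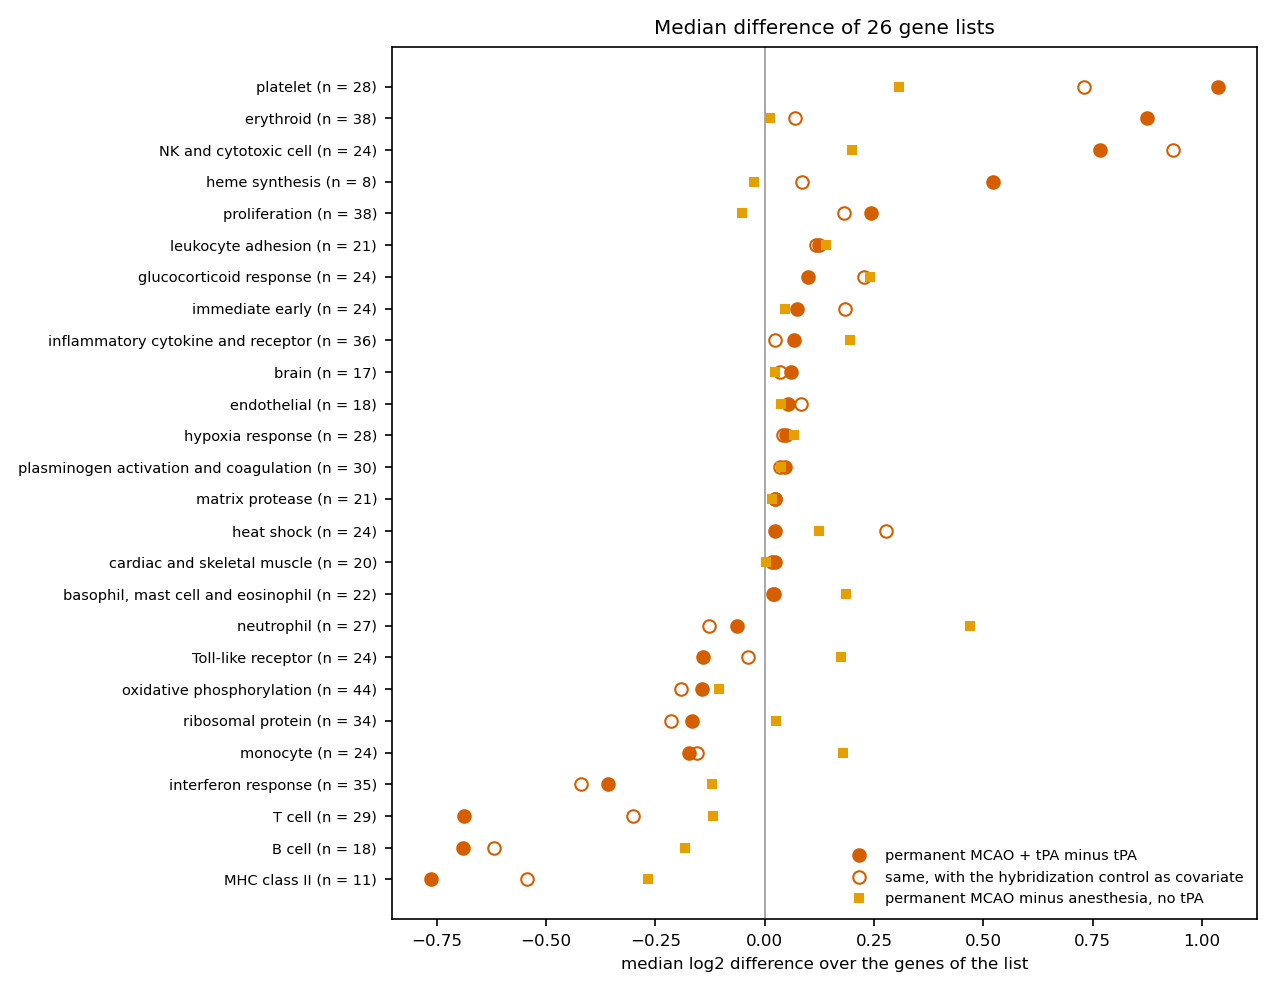
Median log2 difference over the genes of each of 26 lists for permanent-MCAO with tPA minus tPA (filled circles), the same with the hybridization control as a covariate (open circles), and permanent-MCAO minus anesthesia without tPA (squares). Platelet genes lie highest at 1.04 and MHC class II genes lowest at -0.76, while with the covariate the erythroid median moves from 0.87 to 0.07.

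Few probe sets separated permanent from reperfused occlusion in tPA-treated rats. Permanent against reperfused MCAO, both with tPA, gave 103 called probe sets (0.332%), 43 higher and 60 lower, 0 after adjustment in limma, and 622 at an unadjusted p under 0.05. The 103 lie below the about 310 that would meet the p threshold alone without any effect. The smallest limma adjusted p was 0.62. Of 35 interferon response genes 8 were called, all lower with permanent-MCAO, and none of them passed adjustment. Mx2 was -1.14 (95% interval -1.68 to -0.60), Usp18 -1.14, Irgm -0.71 and Isg15 -1.36, and Rtp4 outside the list -1.38. Of the leading genes above, Clu differed by 0.36 (-0.29 to 1.01), Gzma by -0.07 (-0.85 to 0.70) and Mcpt8 by -0.41 (-1.797 to 0.97) between permanent and reperfused MCAO.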

How the data were processed

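Blood RNA was labelled with whole blood amplification reagents and hybridized to 1 array per rat, and rats are separate animals. The deposited table holds log2 values that the authors made from the scans with GC-RMA in Partek. The scans were not used here, and the number of arrays limits the precision. Of the probe sets, 57 controls were set aside, 20826 had 1 gene symbol, 436 several and 9780 none, and symbols were updated through the RefSeq gene table of GRCr8. Each gene was represented by the probe set with the highest mean over 42 arrays. Groups were compared in limma 3.58.1 (R 4.3.3) with 2 groups and no covariate, the interaction over 4 groups, and exact permutation tests were used for single values. Fits were checked on simulated data. A gene is described by its lowest, median and highest rat. The 26 gene lists, the members and the tests were chosen with earlier results of these data known. Genes named are those passing adjustment with a mean of at least log2 4 (up to 15 in each direction), key genes of the lists, the 4 smallest p per list, genes the study names, and interactions passing adjustment. Others are said to be named after their values were seen. Alternatives were array weights, an intensity trend, the methods' ordinary test, median centring, quantile scaling, dim probe sets removed (mean under log2 4), all 42 arrays in 1 fit, a replicate block, the hybridization control as a covariate, other folds and omission of each array. Omission of 2 arrays together and a beta-actin covariate were added after seeing the data. Figures were drawn in Python 3.11.15 with matplotlib 3.10.9.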

Additional observations from a re-analysis of the deposited data

Results flagged for a closer look

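The effect of permanent-MCAO on Tmem268 differed between tPA-treated and untreated rats by -1.51, the interaction described above, and the test was the interaction term itself. Single rats lay far from the other 5 of their group in 29 of 270 groups of 6 values examined, where chance flags about 1 in 20 groups, and tPA rat 2 gave 10 of them. That rat had the lowest hybridization control (9.72) and the lowest levels of the red cell genes Hbb (13.69), Alas2 (14.07), Ahsp (9.23), Klf1 (8.44), Slc25a38 (6.88) and Dyrk3 (5.11), and the highest of Tcf7 (13.23), Irf9 (10.24) and Slc35c2 (9.39). tPA rat 4 was lowest for the protease gene Mcpt9 (6.00), the transcription factor gene Gata2 (2.63) and the nuclease gene Dnase2b (5.402). It was also lowest for the cytotoxic genes Ncr1 (3.94) and Ccl5 (11.76). tPA rat 5 was highest for Gp9 (10.45) and lowest for Irak3 (8.46) and RT1-Bb (2.49), and tPA rat 1 was highest for Tnf (7.64) and Lpal2 (5.45), the latter named after its values were seen. Among permanent-MCAO rats, rat 4 was lowest for F13a1 (8.80), Cxcr2 (5.63) and S100a8 (12.36). Rat 6 was highest for Klrg1 (8.12), Gzma (11.38) and Tnf (7.40), and rat 1 was highest for Fcer1a (3.61) and lowest for Ndufv1 (7.58) and Irak3 (7.18).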

How the results depend on the processing

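Among 133 named genes 83 were called, 58 of these in every fit without 1 rat, and no called gene changed direction under any alternative. The hybridization control as a covariate left 29 of the 83 called. For the 629 probe sets higher and 1449 lower, the counts were 192 and 256 with that covariate, 228 and 281 with the beta-actin covariate, and 1330 and 2864 with all 42 arrays in 1 fit. They were 434 and 841 without both arrays that stood apart. Centring on array medians gave 816 and 1156, so that the share of higher calls rose. Without 1 rat they were 420 to 724 and 922 to 1718. The 9 adjusted calls became 48 with array weights, 28 with an intensity trend, 60 after centring and 2 after quantile scaling. They became 938 without dim probe sets, where fewer were tested and the shared variance was estimated anew. That fit called 753 higher and 1195 lower before adjustment. The adjusted calls were 3859 with all 42 arrays, 1 without both arrays, and 0 with the methods' test, either covariate or the replicate block. Without 1 rat they were 0 to 94. For the interaction, 544 positive and 937 negative became 157 and 269 with the hybridization covariate and 293 and 456 without both arrays, and 905 were positive with all 42 arrays. Without 1 rat they were 367 (permanent-MCAO with tPA rat 1) to 764 and 651 to 1279. The 1 adjusted interaction became 0 with the methods' test, centring, the replicate block, the covariate and both arrays omitted, 2 without dim probe sets, 200 with all 42 arrays, and 0 to 25 without 1 rat. The replicate block gave 465 higher and 1024 lower, and 389 and 793 for the interaction. The labels do not say whether rats with the same number were processed together. Their deviations correlated at -0.38 to 0.228, over 0.1 in 3 of 6 pairs, and none correlated best with its own number. So few pairs cannot decide this. Causes were not tested. The floor of dim probe sets and the 6 arrays per group limit precision.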
